A study of Homo sapiens with 9 samples.

Results

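Proteoglycan core proteins are the polypeptides to which cells attach long glycosaminoglycan chains. The mRNAs of 10 of them (VCAN, SDC1, SDC2, SDC3, SDC4, GPC1, GPC3, GPC4, TGFBR3 and AGRN) were taken by gene symbol from the 20379 genes of the table. The cells were HCCLM3, an established human hepatocellular carcinoma line, and poly(A) RNA was sequenced. Each of 3 groups of 3 libraries, named here by group and the letters a, b and c, received a different siRNA: a non-targeting control (siRNA-NC), one against UXS1, or one against MRPL42. No dose, time after transfection or siRNA sequence is given in the sources used here, and all groups are of this 1 line. Whether libraries are separate cultures is not stated, so p-values reflect a spread between libraries that can be technical only.

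Each chain is started on a serine of a core protein by a linker whose first sugar is xylose, donated by UDP-xylose. UXS1 encodes the decarboxylase that makes UDP-xylose from UDP-glucuronate, so it stands upstream of the chains of every core described here. MRPL42 belongs to the ribosome of mitochondria. The core decides where the chains end up: versican (VCAN) and agrin (AGRN) are secreted into the matrix, syndecans (SDC1 to SDC4) span the membrane, glypicans (GPC1, GPC3, GPC4) are held on the outer membrane face by a lipid anchor, and betaglycan (TGFBR3) is a membrane co-receptor for TGF-beta ligands. Through their chains these proteins bind growth factors, Wnt ligands and matrix proteins, and GPC3 is widely used as a marker of hepatocellular carcinoma.

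The libraries held between 15265959 and 22400560 estimated counts, and control library c stood apart. Pearson's r of its log2 CPM with any other library, taken over genes (no independent replicates), reached 0.967 at most, against up to 0.995 among the others. CPM are counts scaled to a common total of the tested genes, adjusted by the trimmed mean of M values (TMM). A hepatocyte list lay at a mean relative log2 CPM of -1.34 in control library c, against 0.25 and 0.15 in control libraries a and b. The 6 tested histone genes of a list of nuclear and histone RNAs, kept for RNA quality, lay at 0.92, against -0.52 and -0.40. The nuclear RNAs of that list (MALAT1, NEAT1 and KCNQ1OT1) were not analysed here. Not every gene of the hepatocyte list was low in control library c. HNF4A was at 17.2 CPM per kb there, against 8.2 to 8.96 in the other libraries. FOXA2 was at 22.8 against 14 to 19.6, and APOH at 47.8 against 32.7 to 43.5. ALB and AFP were low in all libraries for a liver line (1.59 to 6.35 and 0.662 to 1.08 CPM per kb). Of 8 bile duct and intestinal markers KRT19 was at 246 to 394 CPM per kb and LGALS4 at 159 to 294. In the same list KRT7 was at 1.18 to 11, SOX9 at 1.47 to 3.09 and EPCAM at 0.180 to 0.375 CPM per kb. CPM per kb, a level per length, is CPM divided by the length in kilobases of the longest protein-coding transcript of the gene in GENCODE 29. Fibroblast markers summed to 0.136 to 0.283 CPM per kb over 8 genes, with PDGFRA, THY1 and POSTN at 0, and 5 endothelial markers summed to 3.65 to 11.3 CPM per kb, with CDH5 at 0, PECAM1 at 2.82 to 5.65 and KDR at 0.657 to 6.10. The siRNA targets did not pass the test: edgeR gave log2 fold changes against control of -0.17 for UXS1 mRNA in UXS1 siRNA (adjusted p = 0.348) and -0.39 for MRPL42 mRNA in MRPL42 siRNA (adjusted p = 0.185). Without control library c they were -0.08 and -0.24 (edgeR adjusted p = 0.519 and 0.252), and the libraries of each target overlapped control in both fits. The comparisons of the cores with control siRNA are given with and without control library c.

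Among the 10 cores, GPC1 was the most abundant mRNA per length in every library, at 61.2 to 79.3 CPM per kb. SDC1 followed at 49.4 to 60.9 CPM per kb, below GPC1 in each library. Their ranges over the 9 libraries did not overlap on the longest transcript but met on the principal one, where SDC1 stood at 50.5 to 62.2 CPM per kb. AGRN stood at 34.0 to 50.1 CPM per kb, below SDC1 in each library though their ranges met. SDC4 stood at 27.6 to 72.4 CPM per kb, below AGRN in 8 libraries, and above AGRN and SDC1 in control library c. VCAN, at 6.39 to 26.1 CPM per kb, was below SDC4 in each library. SDC3 stood at 7.72 to 9.42 CPM per kb on its longest transcript (6392 bases), but at 31.2 to 38.1 on its principal one (1580 bases), so its place relative to VCAN, SDC4 and AGRN cannot be given. For the other 7 detected cores the longest protein-coding transcript is at most 1.24 times the principal one. TGFBR3 was scarce, at 1.02 to 2.25 CPM per kb. SDC2 was at 0.0137 to 0.0705 CPM per kb, and GPC3 and GPC4 had no counts.

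**Figure D1:**
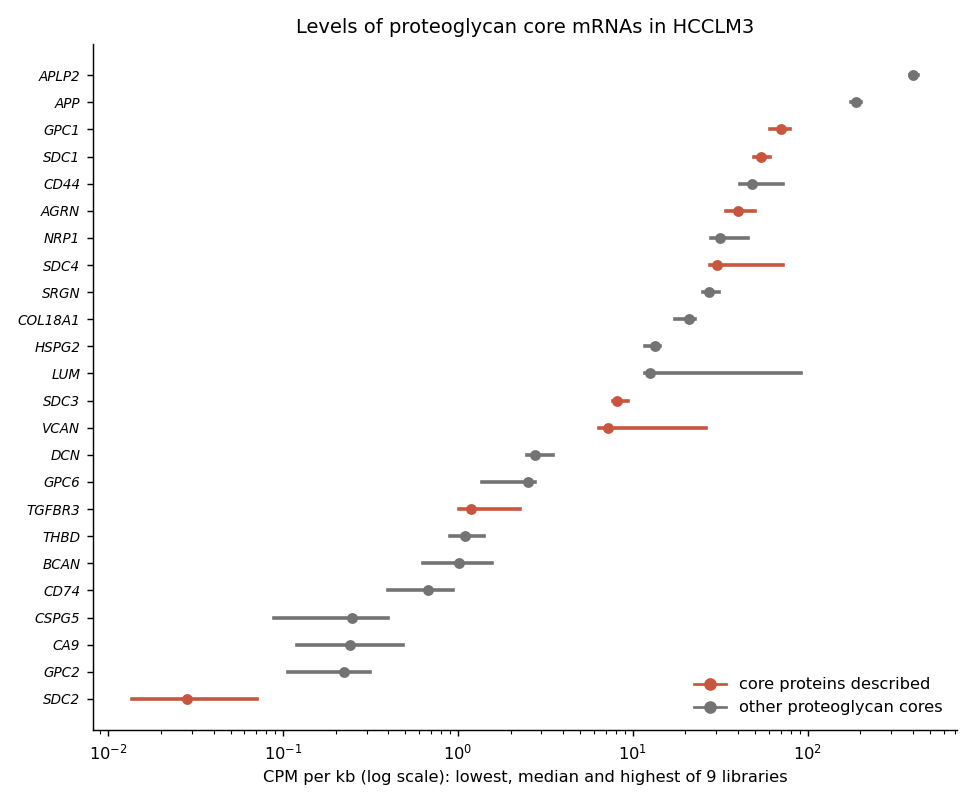
Levels per length (CPM per kb of the longest protein-coding transcript, log axis) of the detected core proteins described here and of other proteoglycan cores, as the lowest, median and highest of 9 libraries. GPC1, SDC1 and AGRN stand between 34.0 and 79.3 CPM per kb with short ranges, while the ranges of SDC4, VCAN and LUM are drawn out to the right.

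SDC4, GPC1 and SDC1 are the 3 abundant cores with a RefSeq promoter window, the 250 bases before an annotated start on GRCh38.p14, that holds no GENCODE 29 exon of the gene. SDC1 has another window, at 20225131 to 20225380, with 1 GC box. It is not printed, since 119 of its bases lie in an exon. The 3 windows are printed as sequences only, and no tie between their motifs and the levels was tested. Capitals mark the GC box, GGGCGG on either strand.
SDC4, chr20:45348425-45348674, minus strand: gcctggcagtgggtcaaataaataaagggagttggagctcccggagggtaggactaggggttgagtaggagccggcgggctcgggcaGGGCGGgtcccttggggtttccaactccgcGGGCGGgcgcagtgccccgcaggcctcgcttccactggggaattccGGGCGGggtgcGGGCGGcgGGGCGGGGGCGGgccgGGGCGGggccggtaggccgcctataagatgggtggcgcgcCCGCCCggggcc
GPC1, chr2:240435413-240435662, plus strand: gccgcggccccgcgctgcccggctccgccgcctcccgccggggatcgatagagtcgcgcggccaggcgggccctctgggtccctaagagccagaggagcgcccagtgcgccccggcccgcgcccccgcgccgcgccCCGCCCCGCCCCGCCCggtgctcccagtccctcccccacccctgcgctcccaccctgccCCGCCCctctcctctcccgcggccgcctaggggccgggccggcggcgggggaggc
SDC1, chr2:20225476-20225725, minus strand: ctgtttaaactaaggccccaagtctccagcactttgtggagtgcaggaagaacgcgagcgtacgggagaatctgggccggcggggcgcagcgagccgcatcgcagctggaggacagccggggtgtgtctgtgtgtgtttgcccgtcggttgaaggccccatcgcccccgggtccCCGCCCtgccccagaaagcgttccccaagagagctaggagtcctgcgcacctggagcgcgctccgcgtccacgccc

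The SDC4 window is dense in this motif, with 8 matches, some of them adjoining. GPC1 has 4 matches and SDC1 has 1. Of the windows not printed, that of SDC3 has 5 matches, those of TGFBR3 and GPC4 have 2 each, and that of VCAN has 1. GGGCGG is common: 42.6% of 35116 RefSeq promoter windows of the same length hold it. No member window held TATAAA on either strand, letters found in 10.7% of all windows. The AP-1 motif TGANTCA, found in 6.57% of all windows, was in none of them either. CTTTGA, found in 11.2%, was likewise in none. The members' windows were also rich in G and C (60.8% to 84.0%, against a median of 58% over all windows). Windows were matched for 7 of the 10 members. The table gave none to use for SDC2, GPC3 and AGRN, and those of VCAN, TGFBR3, SDC3 and GPC4 overlap an exon and are not printed. A match here is a description of letters, not a binding site.

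The syndecans carry heparan sulfate near the cell surface and signal through short cytoplasmic tails. SDC1, the epithelial syndecan (chromosome 2, 20200797 to 20225433, minus strand, GRCh38), had 179, 168 and 188 CPM in control libraries a, b and c, 167, 190 and 163 CPM with UXS1 siRNA, and 184, 176 and 200 CPM with MRPL42 siRNA. These groups overlapped throughout. In bulk RNA such as this, fewer cells of a kind and less RNA per cell cannot be told apart. SDC4, found at focal adhesions (chromosome 20, 45325288 to 45348424, minus strand), had 79.3, 84.2 and 189 CPM with control siRNA, 74.8, 77.3 and 72.2 CPM with UXS1 siRNA, and 83.6, 79.5 and 81.0 CPM with MRPL42 siRNA. Control library c was more than 2-fold above each of the other 8 libraries for SDC4, which lay within 72.2 to 84.2 CPM. Each UXS1 siRNA library was below each control library, by a small margin for a and b. SDC3, best known from the nervous system (chromosome 1, 30869467 to 30908761, minus strand), had 51.0, 49.3 and 51.7 CPM with control siRNA, 52.2, 52.2 and 53.5 CPM with UXS1 siRNA, and 53.7, 56.3 and 60.2 CPM with MRPL42 siRNA. It was the steadiest member within control siRNA, with a coefficient of variation of 2.37%, and the 3 groups did not overlap in CPM. Of all tested genes 26.2% did not overlap between UXS1 and control siRNA. The share was 21.6% between MRPL42 and control siRNA and 10.1% between UXS1 and MRPL42 siRNA. How many genes are apart in all 3 groups was not counted. SDC2 (chromosome 8, 96493351 to 96611780, plus strand) had 1, 3 and 5 counts in control siRNA, 1, 3 and 1 in UXS1 siRNA, and 2, 1 and 2 in MRPL42 siRNA. These counts are too few to compare, and SDC2 did not pass the filter on low counts.

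Versican and agrin are large secreted cores, versican with chondroitin sulfate chains and agrin mainly with heparan sulfate. VCAN (chromosome 5, 83471465 to 83582303, plus strand) had 107, 117 and 329 CPM with control siRNA, 84.4, 80.7 and 89.3 CPM with UXS1 siRNA, and 89.0, 100 and 90.6 CPM with MRPL42 siRNA. Control library c had about 3 times the VCAN of the other controls, and every library of both targeting siRNAs lay below every control library. So did 10.9% of all tested genes in UXS1 siRNA and 10.5% in MRPL42 siRNA. The share below control in both was not counted. AGRN (chromosome 1, 1020123 to 1056118, plus strand) had 313, 280 and 370 CPM with control siRNA, 270, 294 and 251 CPM with UXS1 siRNA, and 298, 292 and 314 CPM with MRPL42 siRNA. Its highest value was again in control library c, but the groups overlapped.

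Glypicans modulate Wnt, Hedgehog and growth factor signals at the membrane. GPC1 (chromosome 2, 240435671 to 240468078, plus strand) had 276, 244 and 294 CPM with control siRNA, 242, 260 and 227 CPM with UXS1 siRNA, and 258, 272 and 293 CPM with MRPL42 siRNA. Its groups overlapped. GPC3 and GPC4 (chromosome X, 133535745 to 133985895 and 133300103 to 133415490, both minus strand) had 0 counts in all 9 libraries. A count of 0 allows up to 3 counts, which is 0.134 to 0.194 CPM depending on the library, and covers counting error only. The liver tumour marker among the glypicans was thus not detectable at this depth in HCCLM3. TGFBR3 (chromosome 1, 91680343 to 91906335, minus strand), whose protein hands TGF-beta ligands to the signalling receptors, had 8.26, 8.96 and 14.5 CPM with control siRNA, 6.59, 7.69 and 7.32 CPM with UXS1 siRNA, and 7.30, 6.79 and 7.92 CPM with MRPL42 siRNA. As for VCAN, the libraries of both targeting siRNAs were all below the lowest control library, and control library c was the highest of all. Of all tested genes 10.9% lay wholly below control in UXS1 siRNA and 10.5% in MRPL42 siRNA, against the same controls.

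**Figure D2:**
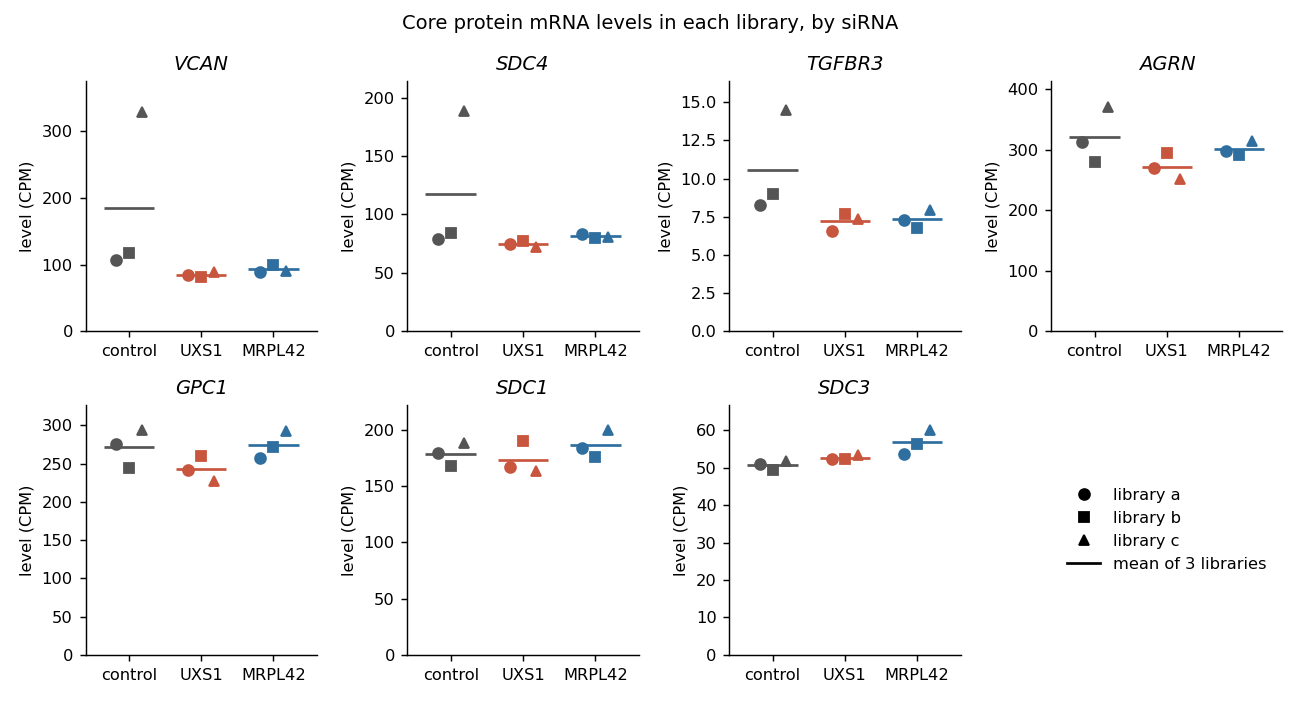
CPM of the 7 tested core mRNAs in each library (symbols for libraries a, b and c, lines for the mean of 3 libraries), by siRNA, each axis starting at 0. Control library c stands far above the rest for VCAN (329 CPM), SDC4 (189 CPM) and TGFBR3 (14.5 CPM), and within or near the others for GPC1, SDC1 and SDC3.

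The make-up of the core pool was similar in 8 libraries. GPC1 gave 32.1% to 34.2% of the members' summed CPM per kb in those libraries and 26.8% in control library c. SDC4 gave 13.4% to 15.7% in the 8 libraries and 24.5% in control library c, and VCAN 3.00% to 4.52% against 8.83%. Summed CPM per kb was 219, 205 and 295 in the control libraries, 197, 213 and 189 in the UXS1 siRNA libraries, and 214, 214 and 231 in the MRPL42 siRNA libraries. Both siRNA groups overlapped the controls in this sum, and control library c was the highest of the 9. These shares and sums take SDC3 on its longest transcript, at 7.72 to 9.42 CPM per kb. Its principal transcript gives 31.2 to 38.1 CPM per kb, which would raise the sums and lower the shares of GPC1, SDC4 and VCAN.

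**Figure D3:**
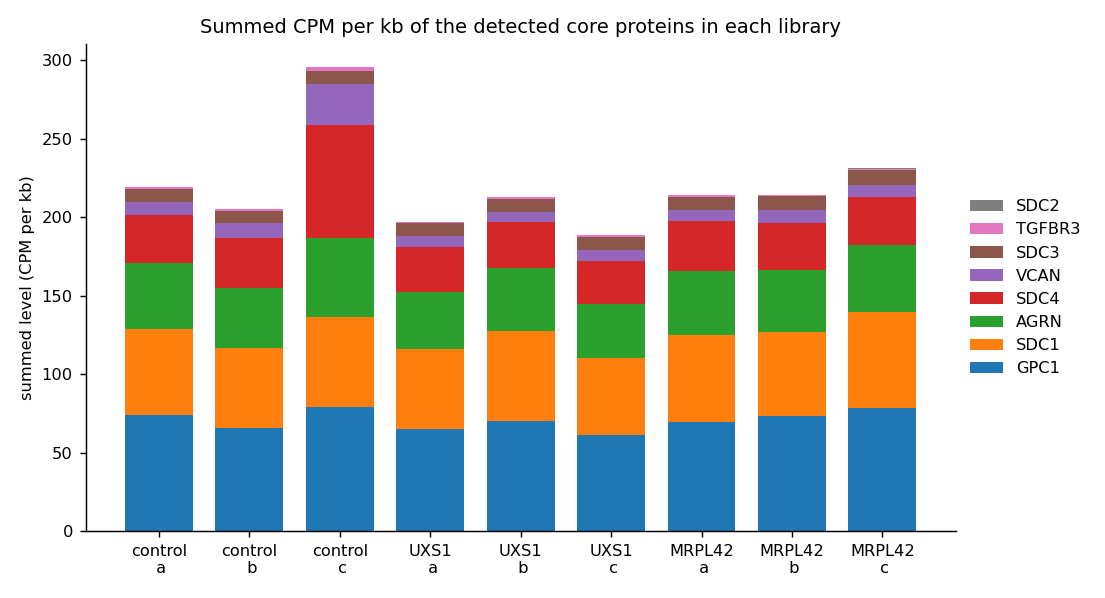
Summed CPM per kb of the detected core proteins in each library, stacked by gene, each on its longest protein-coding transcript. Control library c reaches 295 CPM per kb with thick SDC4 and VCAN segments, while the other 8 libraries lie between 189 and 231 CPM per kb with like proportions.

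The comparison of UXS1 siRNA with control siRNA asks whether the cores' own transcripts move when the enzyme for UDP-xylose is targeted. Of the 10 cores 7 passed the filter and were tested, and none passed an adjusted p of 0.05 in edgeR's quasi-likelihood test, where 0.0158% of the 12657 genes did. At an unadjusted p under 0.05 there were 4 (VCAN, SDC4, TGFBR3 and AGRN), against 2249 of all genes. DESeq2 also called no member, where it called 460 of the 12657 genes. The log2 fold changes were below 0 for 6 of 7 members, with a median of -0.24, against a median of 0 and 49% of genes above 0. In 4 members the groups did not overlap (VCAN, SDC4 and TGFBR3 below control, SDC3 above), where 26.2% of all tested genes did not overlap.

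VCAN had the largest difference, with 84.8 ± 4.33 CPM beside 184 ± 126 CPM for control (SD over 3 libraries each). Its edgeR log2 fold change was -1.12 (SE 0.37, 95% confidence interval -1.95 to -0.29, adjusted p = 0.197). For SDC4 it was -0.65 (95% confidence interval -1.29 to -0.02, edgeR adjusted p = 0.273) and for TGFBR3 -0.55 (-1.01 to -0.10, edgeR adjusted p = 0.222). AGRN gave -0.24 (-0.47 to -0.01, edgeR adjusted p = 0.272). The intervals of all 4 lie below 0, yet none of the differences passed once adjusted over all genes. GPC1 gave -0.16 (-0.35 to 0.04), SDC1 -0.04 (-0.23 to 0.14) and SDC3 0.05 (-0.09 to 0.19). SDC3 was at -0.06 with a correction for transcript length, so no direction can be given for it. The exact two-sided permutation test of CPM gave its smallest possible p for 3 against 3, 0.1, for each of the 4 members that did not overlap. That p follows from the lack of overlap and adds nothing to it.

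Without control library c the spread of the control group shrank and VCAN alone among the cores passed. VCAN fell in UXS1 siRNA, from 112 ± 7.42 CPM (SD, n = 2) to 84.8 ± 4.33 CPM (SD, n = 3). The edgeR log2 fold change was -0.41 (SE 0.07, 95% confidence interval -0.57 to -0.25, adjusted p = 0.0200), a level 0.751 times that of control. In that fit 1.58% of 12747 genes passed, and 1 of 7 cores. Markers of other cell types that rose in it were KRT7 (0.56, edgeR adjusted p = 0.0331), 1 of 8 bile duct and intestinal markers, and CD68 (0.44, edgeR adjusted p = 0.00727), 1 of 4 tested leukocyte markers. The leukocyte markers PTPRC and CD3E were at 0.0984 and 0.0343 CPM per kb at most. The part of KRT7 and CD68 in the VCAN result was not tested. The size of the VCAN difference thus went from a log2 fold change of -1.12 to -0.41 with that 1 library. Over the 27 alternatives run it lay between -1.40 and -0.35. Every UXS1 siRNA library was below every control library for VCAN, so leaving libraries out could hardly turn its sign. With control library c left out, VCAN also passed in DESeq2 (-0.40, adjusted p = 0.00115) and limma-voom (-0.41, adjusted p = 0.0206). When a second library was left out as well, it passed in 4 of 8 edgeR fits. It passed without UXS1 siRNA library c (edgeR adjusted p = 0.0461). With MRPL42 siRNA library a, b or c left out, which give no mean to this comparison, edgeR adjusted p was 0.0166, 0.00146 and 0.047. It did not pass without control library a or b (edgeR adjusted p = 0.139 and 0.245). Nor did it without UXS1 siRNA library a or b (edgeR adjusted p = 0.0985 and 0.0835).

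VCAN has one of the longer transcripts (12625 bases for its principal transcript in GENCODE 29, against a median of 2993 over tested genes). The trend of levels with length differed between the control and the UXS1 siRNA libraries. Slopes of log2 CPM, relative to each gene's mean over the 9 libraries, were taken per doubling of transcript length. They were 0.05, 0.07 and 0.13 in control libraries a, b and c, and -0.03, -0.07 and -0.01 in UXS1 siRNA. In MRPL42 siRNA they were -0.1, 0.04 and -0.08, so the sign also differed within that group. Without control library c and corrected for length, the VCAN difference was -0.36 (edgeR adjusted p = 0.00631). The 6 histone genes also differed between the groups, at -0.52 and -0.40 in control libraries a and b and at 0 to 0.04 in UXS1 siRNA, and its part in the VCAN result was not tested.

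The other cores stayed short of the threshold without control library c. The log2 fold change was -0.14 for SDC4 (edgeR adjusted p = 0.231), where it had been -0.65. TGFBR3 gave -0.27 (edgeR adjusted p = 0.246) and AGRN -0.14 (edgeR adjusted p = 0.364). GPC1, SDC1 and SDC3 gave -0.11, -0.02 and 0.06, with intervals of -0.29 to 0.07, -0.19 to 0.16 and -0.09 to 0.20. Differences of those sizes are therefore not excluded by these libraries.

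**Figure D4:**
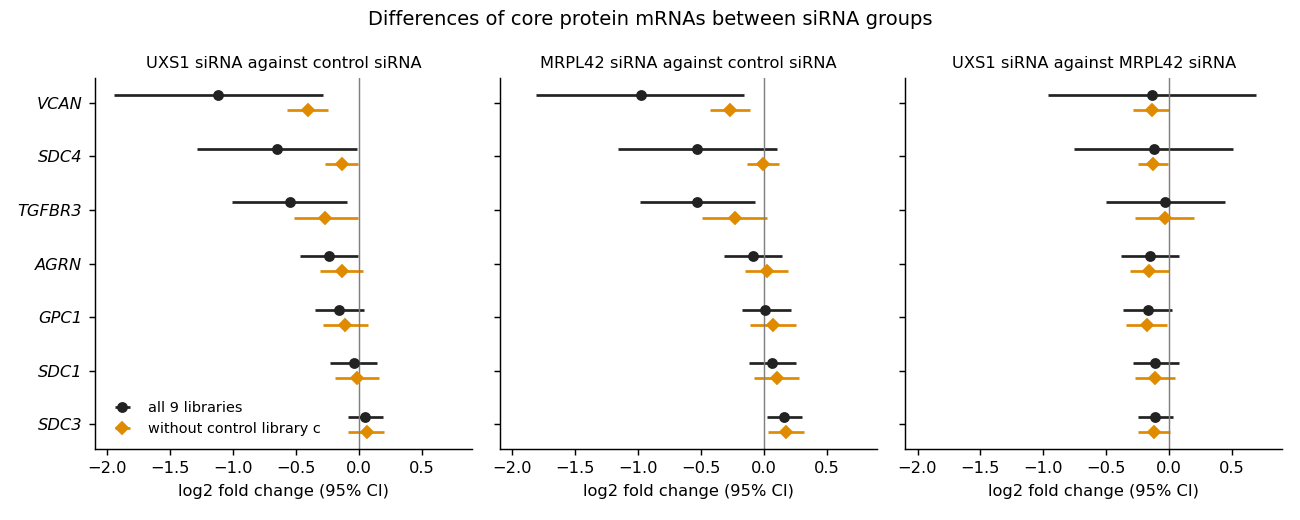
Log2 fold changes with 95% confidence intervals of the 7 tested core mRNAs in the 3 comparisons, from the fit of 9 libraries (black) and from the fit without control library c (orange). VCAN moves from -1.12 to -0.41 in UXS1 siRNA against control siRNA when control library c is left out, and SDC4 from -0.65 to -0.14.

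In MRPL42 siRNA against control siRNA, which shares its control libraries with the first comparison, no core passed in edgeR, where 0% of the 12657 genes did. At an unadjusted p under 0.05 there were 3 cores (VCAN, TGFBR3 and SDC3), against 2561 of all genes. DESeq2 called no member, where it called 677 of the 12657 genes. VCAN stood at 93.2 ± 5.92 CPM (SD, n = 3), with a log2 fold change of -0.98 (95% confidence interval -1.81 to -0.16, edgeR adjusted p = 0.196). TGFBR3 gave -0.53 (-0.99 to -0.07, edgeR adjusted p = 0.208) and SDC4 -0.53 (-1.16 to 0.10, edgeR adjusted p = 0.308). The CPM of SDC3 averaged 56.8 ± 3.27 in this group and 50.7 ± 1.20 in the control group (SD over 3 libraries), a log2 fold change of 0.16 (0.02 to 0.30, edgeR adjusted p = 0.200). With the length correction it was 0.04 (edgeR adjusted p = 0.794), and 0.08 with it and without control library c. VCAN and TGFBR3 (below) and SDC3 (above) did not overlap the controls, 3 of 7 cores, where 21.6% of all tested genes did not overlap.

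AGRN, SDC1 and GPC1 gave log2 fold changes of -0.09, 0.06 and 0.01, with intervals of -0.32 to 0.14, -0.12 to 0.25 and -0.18 to 0.21. AGRN turned to 0.02 with the length correction and, separately, without control library c, and GPC1 to -0.06 and -0.04 when control library b or MRPL42 siRNA library c was left out. Of the 7 cores 4 were below 0, with a median of -0.09, against -0.01 over all genes, and 3 without control library c, with a median of 0.02. Without control library c, 1.33% of 12747 genes passed and no core did. In that fit 2 of 8 bile duct and intestinal markers and 1 of 4 tested leukocyte markers rose. VCAN was at -0.27 (-0.43 to -0.11, edgeR adjusted p = 0.0996), TGFBR3 at -0.23 (-0.49 to 0.02) and SDC4 at -0.01 (-0.14 to 0.12). Leaving out control library c thus moved SDC4 from -0.53 to near 0, and SDC3 little, to 0.17 (0.03 to 0.32, edgeR adjusted p = 0.181).

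The direct comparison of UXS1 siRNA with MRPL42 siRNA takes no mean from the controls, though they enter the spread that the fit shares over all groups. No core passed in edgeR, where 0% of the 12657 genes did, with no core and 218 genes at an unadjusted p under 0.05. Without control library c there were 3 cores (SDC4, GPC1 and AGRN) and 682 genes at that level, and 0% of 12747 genes passed once adjusted. DESeq2 called 0 genes with all 9 libraries, and so no member. All 7 cores were below 0 in UXS1 siRNA, with a median of -0.12, against 0 over all genes and 48.6% of genes above 0. The values were small: -0.17 for GPC1, -0.15 for AGRN, -0.14 for VCAN, -0.12 for SDC4, -0.11 for SDC1 and SDC3, and -0.03 for TGFBR3, which turned to 0.03 with a library left out. For SDC4 and SDC3 the highest UXS1 siRNA library lay below the lowest MRPL42 siRNA one, 2 of 7 cores, where 10.1% of all tested genes did not overlap. The interval for VCAN was -0.96 to 0.69, and -0.29 to 0 when control library c was left out. The VCAN call in UXS1 siRNA is thus not shown to differ from the value in MRPL42 siRNA (edgeR adjusted p = 1, and 0.868 when control library c was left out).

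Control library c against the other control libraries is a comparison of single libraries, without a test. VCAN was 2.95-fold higher there than the mean of control libraries a and b (98.7th percentile of the 12657 tested genes), SDC4 2.31-fold (97.7th) and TGFBR3 1.69-fold (94th). AGRN was 1.25-fold higher (81.8th), GPC1 1.13-fold, SDC1 1.08-fold and SDC3 1.03-fold. Thus all 7 were at or above the other controls, by amounts that differed widely between cores of one family: SDC4 and SDC1 are both syndecans. Of all tested genes 3.48% were at least 2-fold higher in control library c and 4.37% at least 2-fold lower. The small leucine-rich proteoglycan LUM, no member, was at 91.9 CPM per kb there and at 11.8 to 14.6 CPM per kb in the other 8 libraries. The intestinal cadherin CDH17 was at 166 CPM per kb against 37.0 to 42.1 CPM per kb. In its list of 8 markers VIL1 was also higher there (31.8 against 13.3 to 16.5 CPM per kb). KRT7 (1.18 against 6.26 to 11) and SOX9 (1.47 against 1.99 to 3.09) were lower there. The mean relative log2 CPM of that list was -0.04 in control library c, against -0.17 and -0.20 in control libraries a and b. The part of a different cell state or RNA quality in these levels was not tested.

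**Figure D5:**
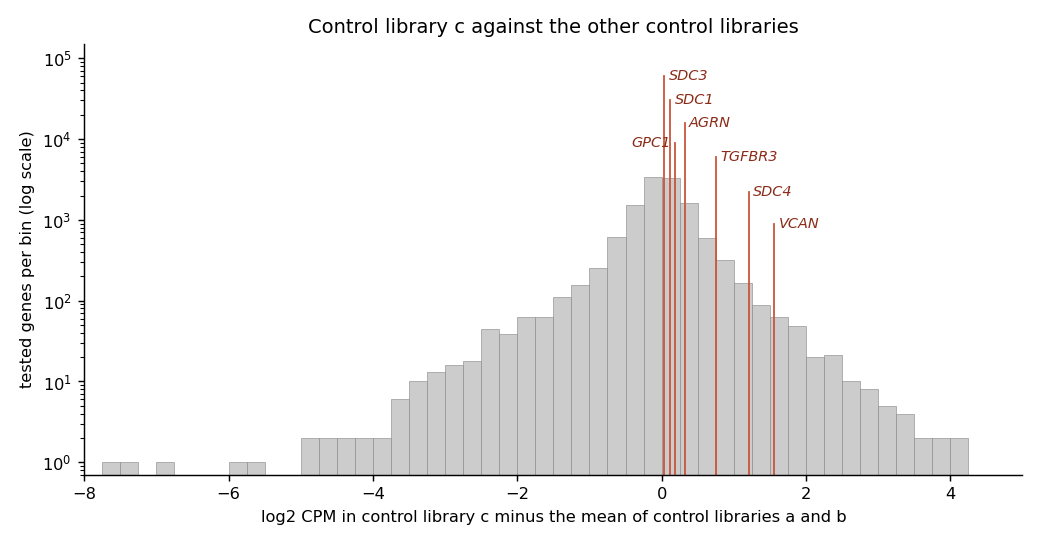
Histogram of log2 CPM in control library c minus the mean of control libraries a and b over the 12657 tested genes (log count axis), with the 7 tested cores marked. VCAN (1.56) and SDC4 (1.21) lie in the upper tail and TGFBR3 (0.75) at its edge, while SDC3, SDC1, GPC1 and AGRN lie near the centre.

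Genes whose log2 CPM ran most like each core over the 9 libraries were picked by Pearson's r, as a description that control library c can set. For VCAN this was DSP (0.998), which encodes the desmosomal protein desmoplakin, for SDC4 LAMB3 (0.993), a laminin chain of epithelial basement membranes, and for TGFBR3 FHL2 (0.979). GPC1 went with ARHGDIA (0.992), AGRN with HPCAL1 (0.982), SDC1 with SLC52A2 (0.980) and SDC3 with HNRNPAB (0.885). Over the 8 libraries without control library c only GPC1 had the same nearest gene, ARHGDIA (0.990). VCAN then had HNRNPH3 (0.979) and SDC4 BET1L (0.922).

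Genes that make, cut, bind or accompany the cores were followed in 7 lists. In the list of 41 other proteoglycan cores, 17 were tested, 7 were at 0 in all libraries and none passed in any comparison, with medians of -0.06 (UXS1 siRNA) and 0.02 (MRPL42 siRNA) against control, beside 0 and -0.01 over all genes. The medians were 0.06 and 0.04 without control library c. The largest difference was that of LUM (-1.51 and -1.64), which was 0.16 and 0.04 without control library c. The thrombin receptor THBD gave -0.39 (edgeR adjusted p = 0.227) and the granule proteoglycan SRGN 0.18 (edgeR adjusted p = 0.227) in UXS1 siRNA. APLP2 and APP exceeded all members per length, with medians of 402 and 189 CPM per kb, and CD44 had 47.9. All 3 carry chains on some of their forms. Perlecan (HSPG2), with a median of 13.4 CPM per kb, and COL18A1, with 21.1, were the matrix heparan sulfate cores beside AGRN.

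Of 15 tested enzymes of the UDP-xylose and linker pathway none passed, with medians of -0.05 and -0.06 against control, and of -0.02 and -0.03 without control library c. CSGALNACT2, which starts chondroitin chains, gave -0.51 in UXS1 siRNA (edgeR adjusted p = 0.215) and -0.57 in MRPL42 siRNA (edgeR adjusted p = 0.152), and -0.29 and -0.34 without control library c. UGDH, which makes UDP-glucuronate, gave -0.07 and -0.22 (edgeR adjusted p = 0.655 and 0.187), and -0.01 and -0.15 without control library c. Of 16 tested enzymes that shed or trim cores none passed, with medians of -0.10 and -0.13, and of -0.02 and -0.04 without control library c. The matrix protease MMP7, which can release syndecan ectodomains, had 190 ± 4.62 CPM after UXS1 siRNA, beside 139 ± 31.5 CPM for control (SD over 3 libraries each), a log2 fold change of 0.45 (edgeR adjusted p = 0.214), and 0.26 without control library c. The sheddase ADAM9 gave -0.22 in MRPL42 siRNA (edgeR adjusted p = 0.170).

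Of 7 tested partners of syndecan tails none passed, with medians of -0.18 and -0.12, which turned to 0.02 and 0.04 without control library c. The PDZ protein SDCBP2 had 16.9 ± 19.9 CPM for control and 5.52 ± 0.562 CPM after UXS1 siRNA (SD over 3 libraries each). The difference was -1.61 (edgeR adjusted p = 0.273) and 0.03 without control library c. CASK, another PDZ partner, gave -0.21 (edgeR adjusted p = 0.291), and -0.11 without control library c. Of 9 tested matrix partners of versican and hyaluronan none passed, with medians of -0.03 and -0.10. Fibronectin (FN1) gave -0.16 (edgeR adjusted p = 0.344) in UXS1 siRNA and -0.26 (edgeR adjusted p = 0.0713) without control library c, and TNC gave 0.83 (edgeR adjusted p = 0.171) in MRPL42 siRNA, and 0.54 without control library c. The median of this list in MRPL42 siRNA turned to 0.01 without that library. In the agrin receptor complex LRP4 and DAG1 were tested and neither passed, at -0.07 and 0.30 in UXS1 siRNA (edgeR adjusted p = 0.600 and 0.380), and DAG1 at 0.07 without control library c. MUSK, the signalling receptor of the neuromuscular junction, was at 0.155 CPM per kb at most.

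Of 24 tested ligands and receptors that cores present, none passed with all 9 libraries, with medians of -0.17 and -0.18, and of -0.12 and -0.07 without control library c. VEGFA, a growth factor held by heparan sulfate, came nearest, at 38.3 ± 1.20 CPM after UXS1 siRNA, 39.1 ± 2.64 CPM after MRPL42 siRNA and 52.8 ± 4.56 CPM for control (SD over 3 libraries each). Its log2 fold changes were -0.46 and -0.43 (edgeR adjusted p = 0.115 and 0.132). Without control library c VEGFA fell in both, by 0.54 and 0.50 on the log2 scale (edgeR adjusted p = 0.00727 and 0.0131), 1 of 24 in each. No other gene of these 7 lists passed in that fit, where 1.58% and 1.33% of all genes did.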

How the data were processed

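Poly(A) RNA-seq libraries of HCCLM3 cells, 3 per siRNA group, were compared. The submitters' processing notes name HISAT2, Bowtie2, fastp, edgeR and hg38. Not given in the sources used here: versions, roles, annotation, counting program and strand use. Overlapping and antisense genes cannot be separated with certainty. Of the authors' deposited estimated counts, 83.6% to 84.9% of the values above 0 were whole. Another 9 columns were not used, since columns name a group and not a sample; the levels planned from them were replaced by CPM per kb. A design written for raw counts was run on the estimated counts rounded to whole numbers. Columns were assigned to groups by name; the UXS1 columns carry the name with its letters exchanged, and no label ties a, b and c to repeat numbers. The chi-square per gene was 3.34 or more in each pair of libraries, so none was merged. Library totals (15265959 to 22400560) limit low genes. Floors cover counting error only, since reads can be PCR copies.

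edgeR 4.0.16 in R 4.3.3 (filterByExpr, TMM, 1 mean per group over 9 libraries, two-sided quasi-likelihood test, Benjamini-Hochberg over 12657 genes, threshold 0.05) gave the main results. The fit was also run on simulated data. No simulated library stood apart as control library c does, so that case was not tested. Alternatives used limma 3.58.1 and DESeq2 1.42.0, other scalings, filters and libraries, and a lowess length correction. Settings that join the removal of control library c with another change were chosen after seeing the data. Members and lists were chosen with earlier results of these data known. Named genes were all 10 members, both targets, up to 4 called genes or else the 2 of smallest p per list, and the gene of at least 5 CPM nearest to each member by r. Other genes named (LUM, CDH17, KRT7, CD68 and the other markers, APLP2, APP, CD44, HSPG2, COL18A1 and MUSK) were chosen after their values were seen. Coordinates and lengths are from GENCODE 29 (20128 of 20379 identifiers found), and promoter windows from RefSeq. Protein sequences were not used here.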

Additional observations from a re-analysis of the deposited data

How the results depend on the processing

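Of 423 alternative values of the members' log2 fold changes, 401 kept their sign and their side of the threshold, 13 changed sign and 9 passed where the reported value did not, all 9 of them VCAN. The number of genes past the threshold in UXS1 siRNA against control siRNA was 2, and 4 with library totals, 460 with DESeq2 (314 higher, 146 lower), 253 with only the 6 libraries compared (231 higher, 22 lower), 8 with length correction, and 0 to 355 leaving out 1 library (201 without control library c, 64 higher and 137 lower, and 355 without MRPL42 siRNA library b, 317 higher and 38 lower). In MRPL42 siRNA it was 0, and 3 with library totals, 677 with DESeq2 (522 higher, 155 lower), 2 with length correction, and 0 to 810 leaving out 1 library (169 without control library c, 810 without MRPL42 siRNA library b, 748 higher and 62 lower). With control library c left out, length correction, DESeq2 and limma-voom gave 317, 394 and 209 genes in UXS1 siRNA and 292, 483 and 182 in MRPL42 siRNA. The number of cores past the threshold in UXS1 siRNA was 0, from 0 to 1 leaving out 1 library (1 without control library c), and 1, 1 and 1 with length correction, DESeq2 and limma-voom when control library c was left out, each time VCAN. In MRPL42 siRNA VCAN passed in 1 fit, leaving out MRPL42 siRNA library b together with control library c (-0.32, edgeR adjusted p = 0.00717).

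The cause of these changes was not tested. Signs turned for SDC3 in UXS1 siRNA (-0.06 with length correction, -0.02 with it and without control library c) and for SDC1 there (0.02 with length correction without control library c, -0.13 to 0 leaving out 1 library). In MRPL42 siRNA they turned for GPC1 (-0.06 to 0.07 leaving out 1 library) and AGRN (0.02 with length correction, 0.10, 0.03 and 0.02 with length correction, DESeq2 and limma-voom without control library c, -0.18 to 0.02 leaving out 1 library). Between UXS1 and MRPL42 siRNA TGFBR3 ran from -0.09 to 0.03 leaving out 1 library. Settings meant for the log scale of the 9 columns not used were not run. No paired analysis was possible because the columns carry letters that no label ties to the repeat numbers, so the planned replicate block was not run. SDC2, GPC3 and GPC4 had too few counts to compare.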

Other observations

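GPC4 and GPC3 are neighbours on chromosome X, 120254 bases apart in GENCODE 29, and both were at 0 counts of 161923432 summed over the 9 libraries. Of all 20379 genes, 19% had no count in any library. Among the protein-coding genes within 1 Mb on either side, HS6ST2, which adds 6-O sulfate groups to heparan sulfate, TFDP3 and CCDC160 were also at 0, and USP26 had 1 count. Farther out on one side MBNL3 stood at 1.32 to 2.06 CPM per kb. On the other side PHF6 stood at 16.9 to 24.3 CPM per kb and the housekeeping enzyme HPRT1 at 83.5 to 105 CPM per kb. PLAC1 had 14 counts in all. These genes were looked up after the values of GPC3 and GPC4 were seen, and whether a shared cause lies behind the run of genes at or near 0 was not tested.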
